A study of Homo sapiens with 12 samples.

Results

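The genes described here drive and restrain the passage of a cell from G1 into DNA replication. They are the D-type cyclin genes CCND1, CCND2 and CCND3, the kinase genes CDK4 and CDK6, the E-type cyclin genes CCNE1 and CCNE2, the pocket protein genes RB1 and RBL1, and FBXW7, whose product marks cyclin E for destruction. They were chosen by symbol, and all 10 were found among the 26485 genes of the deposited count table. All 10 were among the 14498 genes tested, although CCND2 passed the filter on low counts through its COV362 libraries. RNA was sequenced from COV362 and PEO1, established human cell lines derived from high-grade serous ovarian carcinoma. Each line received DMSO, the solvent control, or prexasertib at 20 nM, which blocks CHK1 and CHK2, the kinases of the DNA damage checkpoint. Each of the 4 groups (COV362 DMSO, COV362 prexasertib, PEO1 DMSO, PEO1 prexasertib) held 3 libraries, lettered A, B and C. The labels name no further genotype or agent and give no treatment time. Each result rests on 1 cell line per background, and nothing in the labels says that the letters are separate cultures, so the p-values measure only the spread between these libraries.

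Background on the pathway is as follows. Growth signals raise D-type cyclins, which bind CDK4 or CDK6 and phosphorylate the pocket proteins RB1 (pRB) and RBL1 (p107). Phosphorylation releases E2F transcription factors, which switch on genes of DNA replication and the E-type cyclins, and cyclin E with CDK2 then carries the cell into S phase. Proteins of the INK4 family, among them p16 from CDKN2A, block CDK4 and CDK6, while p21 from CDKN1A binds cyclin-CDK complexes. The ubiquitin ligase receptor FBXW7 recognises phosphorylated cyclin E. CCNE1 amplification is known in high-grade serous ovarian carcinoma, and cells with excess cyclin E are known to lean on CHK1.

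Promoter sequences are shown for 3 genes that the results below contrast, RBL1 and CDK6, which differed from CCNE1 in the direction of their values in drug-treated PEO1, and CCNE1 itself. They come from RefSeq (GRCh38.p14) and run 5′ to 3′ on the gene's strand from 250 bases before the start site to 50 bases after it. Capitals mark matches to the E2F-type words TTTCCCGC, TTTCGCGC, TTTGCCGC and TTTGGCGC and to the E-box CACGTG, searched on both strands. The windows are chr20:37095948-37096247 (minus strand) for RBL1, chr19:29811741-29812040 (plus strand) for CCNE1 and chr7:92836524-92836823 (minus strand) for CDK6.
RBL1: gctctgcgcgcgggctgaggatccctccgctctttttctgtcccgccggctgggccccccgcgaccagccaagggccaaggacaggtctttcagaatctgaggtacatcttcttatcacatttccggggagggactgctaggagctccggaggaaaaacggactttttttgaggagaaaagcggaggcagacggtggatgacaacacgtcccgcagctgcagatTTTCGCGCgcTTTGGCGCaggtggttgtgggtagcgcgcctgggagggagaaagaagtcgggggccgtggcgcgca
CCNE1: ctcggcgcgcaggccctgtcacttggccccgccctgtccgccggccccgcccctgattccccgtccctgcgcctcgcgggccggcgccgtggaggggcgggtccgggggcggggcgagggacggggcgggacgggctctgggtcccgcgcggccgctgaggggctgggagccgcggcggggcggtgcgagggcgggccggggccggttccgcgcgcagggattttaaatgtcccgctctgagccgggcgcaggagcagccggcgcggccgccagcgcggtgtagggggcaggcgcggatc
CDK6: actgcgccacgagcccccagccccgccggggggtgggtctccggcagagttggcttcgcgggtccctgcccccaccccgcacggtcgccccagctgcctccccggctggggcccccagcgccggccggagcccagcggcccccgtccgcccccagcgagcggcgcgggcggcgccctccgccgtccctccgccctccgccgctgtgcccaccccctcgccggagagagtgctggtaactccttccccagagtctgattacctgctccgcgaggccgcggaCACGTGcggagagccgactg
The RBL1 window held 2 E2F-type words, TTTCGCGC at position -26 and TTTGGCGC at position -16 from the start site. At least 1 of these words was present in 1164 of 35116 RefSeq promoter windows of this length (3.31%). The CCNE1 window held none of the words searched, which says only that these letters are not in it. The CDK6 window held 1 CACGTG, at position 30 after the start site, a word found in 2548 of the 35116 windows (7.26%). RefSeq windows matched 7 of the 10 genes by symbol. In 4 of these, the 3 shown and FBXW7, a start site lay within 100 bases of the gene start in the count table.

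Library totals ran from 9390790 to 18262805 counts. Levels are given as CPM, the counts of a gene per 1000000 counts of its library after TMM scaling (edgeR's trimmed mean method). In all 4 groups the A library's deviation from its group mean leaned toward genes of short exon length, the summed length of a gene's exons. The Spearman rho against exon length across genes was -0.41 to -0.35. The lean was toward long exon length in COV362 DMSO B (0.44), COV362 prexasertib B (0.37), PEO1 prexasertib B (0.41) and PEO1 DMSO C (0.32). The remaining libraries lay from -0.05 to 0.13. The epithelial and ovarian carcinoma list was present, with 7 of 8 markers at 1 CPM or more in both COV362 groups (CDH1 was under 1 CPM) and 8 of 8 in both PEO1 groups. Its summed level ran from 2286 to 2829 CPM in COV362 DMSO and from 2317 to 3515 CPM with drug, and from 6642 to 7756 CPM in PEO1 DMSO and from 3527 to 4108 CPM with drug. Of the 6 immune markers 1 reached 1 CPM in COV362 and 2 did in PEO1, with summed levels of 31.3 to 42.3, 50.1 to 60.2, 37.7 to 42.6 and 32.4 to 39.3 CPM in the 4 groups. Most of these sums was CD68, with means of 36.7, 53.3, 35.6 and 34.3 CPM in the 4 groups. CD14 had 4.27 CPM in PEO1 DMSO and 1.37 CPM in PEO1 prexasertib. CD3E was at 0 in every library of COV362 DMSO, COV362 prexasertib and PEO1 DMSO. All 4 endothelial markers reached 1 CPM in COV362 (summed 80.7 to 96.5 CPM with DMSO, 55.0 to 56.0 CPM with drug), against 1 in PEO1 (6.49 to 7.57 and 1.43 to 3.68 CPM). The largest part was CDH5, with means of 73.9, 45.2, 6.56 and 1.58 CPM in the 4 groups. The 6 fibroblast markers summed to 8.23 to 9.84, 7.09 to 9.58, 5.16 to 7.37 and 4.11 to 6.82 CPM, with LUM and DCN at 0 in both DMSO groups. COL1A1 had means of 4.78, 4.65, 6.18 and 4.93 CPM in the 4 groups. The part of the epithelial and endothelial markers that move with line or drug in the results below was not tested. In bulk RNA, fewer cells that express a gene and less RNA per cell cannot be told apart.

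Levels were compared between genes as CPM per kilobase of exon (CPM per kb), which allows for transcript length. In COV362 DMSO the order was CCND1 (280 ± 14.2, SD, n = 3), CDK4 (264 ± 80.0), CDK6 (39.5 ± 3.86), CCND3 (30.3 ± 5.39), CCNE1 (20.4 ± 3.06), RBL1 (7.71 ± 1.10), CCNE2 (6.26 ± 0.854), FBXW7 (2.79 ± 0.298), CCND2 (1.18 ± 0.0344) and RB1 (0.444 ± 0.263 CPM per kb). Only 2 pairs of neighbours in that order had overlapping libraries, CCND1 with CDK4 and RBL1 with CCNE2. In PEO1 DMSO the order was CCND1 (178 ± 10.96), CDK4 (167 ± 25.8), CCNE1 (10.6 ± 0.447), CCND3 (8.92 ± 1.43), CDK6 (8.87 ± 0.391), RBL1 (7.33 ± 1.05), RB1 (6.57 ± 1.24), CCNE2 (5.54 ± 1.02), FBXW7 (2.88 ± 0.224) and CCND2 (0.00277 ± 0.00481 CPM per kb). There the libraries overlapped between CCND1 and CDK4, between CCNE1 and CCND3, between CCND3 and CDK6, between RBL1 and RB1, and between RB1 and CCNE2. CCND1 and CDK4 thus had the highest levels per length in both lines, while RB1 was lowest in COV362 and CCND2 lowest in PEO1.

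**Figure D1:**
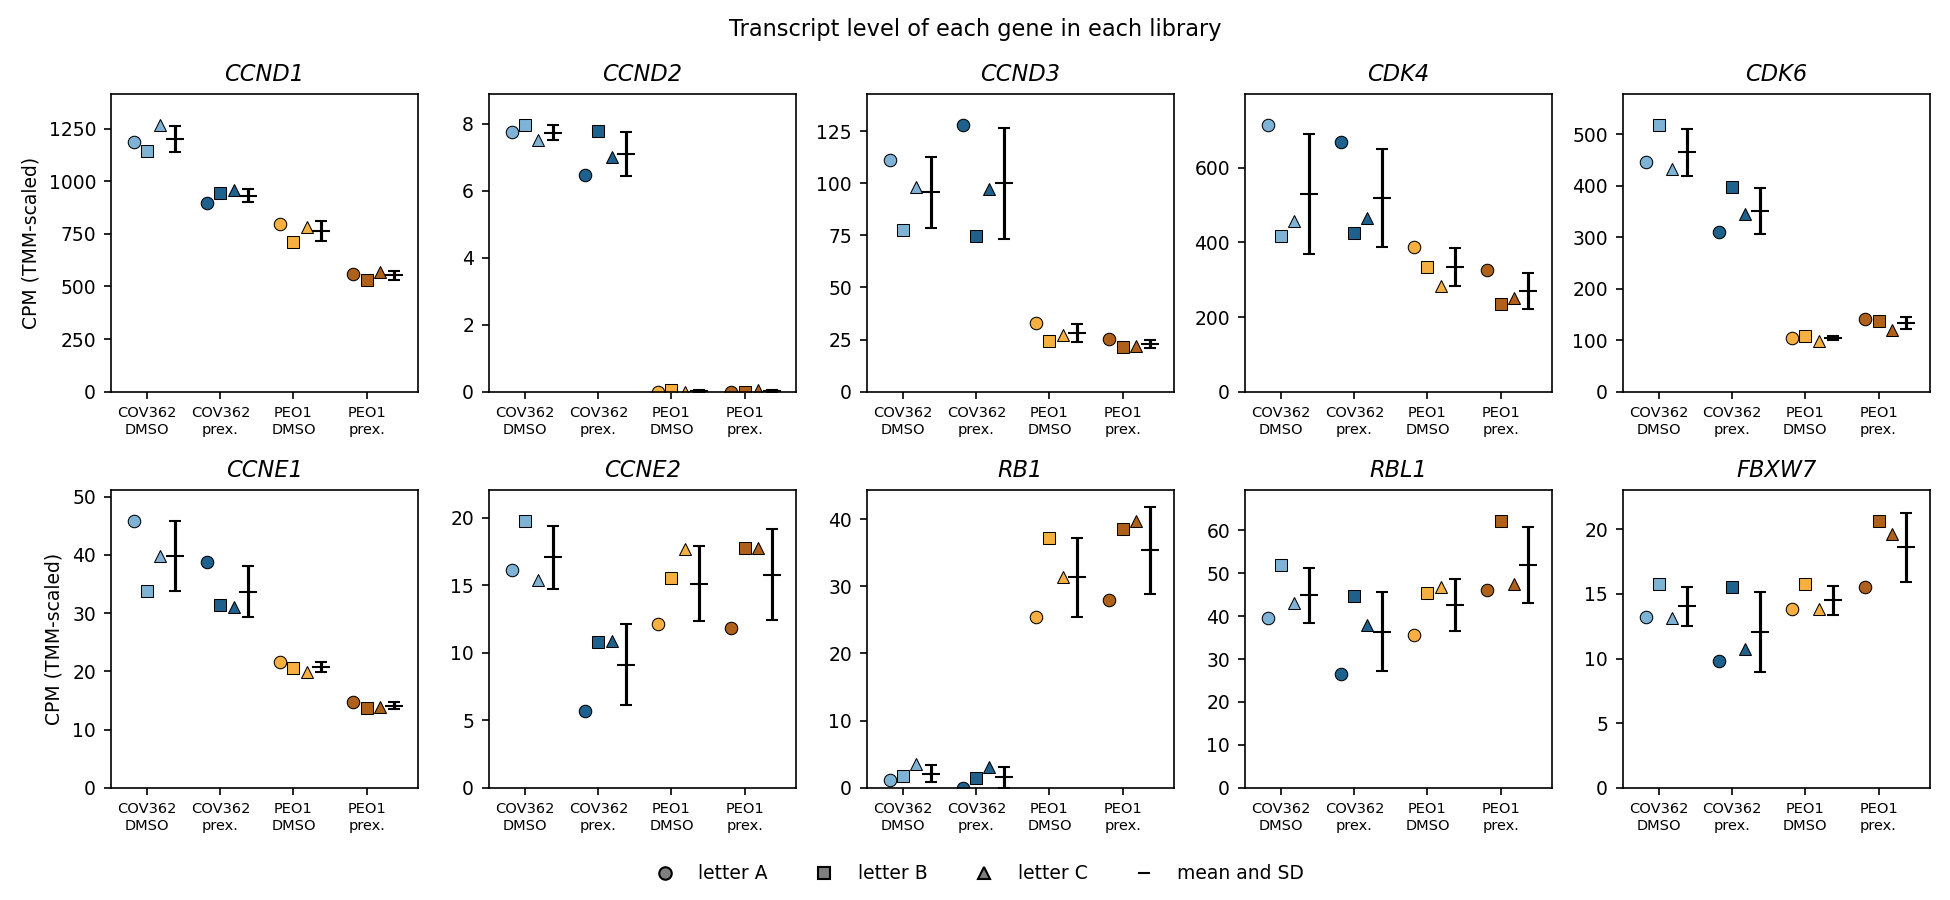
TMM-scaled CPM (linear axes from 0) of the 10 genes in the 12 libraries. Marker shapes give the letters and black bars the mean and SD of 3 libraries. RB1 lies at 0 to 3.52 CPM in the COV362 libraries and at 25.5 to 39.7 CPM in the PEO1 libraries, while CCND2 lies at 6.47 to 7.94 CPM in COV362 and near 0 in PEO1.

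The first comparison asked how far the untreated lines differed in these genes. CCND2, which passed the filter only through COV362, is given by its counts further on and is not counted here. Of the other 9 genes, 6 differed (edgeR quasi-likelihood test, Benjamini-Hochberg adjusted p under 0.05), 1 higher in PEO1 (RB1) and 5 lower (CCND1, CCND3, CDK4, CDK6 and CCNE1). Over all genes tested 8361 of 14498, or 57.7%, were called in this comparison, so the share among the members is near that of all genes. The DMSO libraries of the same 6 genes did not overlap between the lines, as was so for 63.5% of all genes tested. CCNE2, RBL1 and FBXW7 gave log2 differences (PEO1 minus COV362) of -0.18 ± 0.25 (SE), -0.08 ± 0.20 and 0.04 ± 0.20, with adjusted p-values of 0.571, 0.765 and 0.868 in edgeR's quasi-likelihood test.

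RB1 encodes the founding pocket protein and lies on chromosome 13 (hg38, 48303747 to 48481890, plus strand, 27 exons). Its level was 1.09, 1.75 and 3.52 CPM in the A, B and C libraries of COV362 DMSO, from 9, 32 and 54 counts. In COV362 with prexasertib it was 0, 1.48 and 3.12 CPM, from 0, 24 and 53 counts. In PEO1 it was 25.5, 37.2 and 31.4 CPM with DMSO and 27.9, 38.6 and 39.7 CPM with prexasertib. Every PEO1 library was above every COV362 library, and within COV362 the A libraries were lowest and the C libraries highest under both treatments. RB1 was 14.1-fold higher in PEO1 DMSO than in COV362 DMSO (log2 3.82 ± 0.56 SE, edgeR quasi-likelihood test, adjusted p = 5.24e-05), and over 17 alternative settings the log2 difference ran from 3.59 to 4.38. The count of 0 in COV362 prexasertib A allows up to 3 counts, a limit for counting error only.

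The genes around RB1 did not share its difference in size. Of 6 tested genes that start within 500 kb, 1 was higher in PEO1, ITM2B at 0.38 ± 0.12 on the log2 scale (edgeR quasi-likelihood test, adjusted p = 0.0136), and 0 were lower. Over all genes 29.1% were called higher in this comparison and 28.6% lower. The median log2 difference of the 6 was 0.15. LPAR6, which lies inside the span of RB1 without sharing exon bases with it, was at 0.120 CPM in COV362 DMSO and 0.275 CPM in PEO1 DMSO. Of 6616 genes with at least 20 CPM in both PEO1 groups, 10 had 0 counts in all 6 COV362 libraries. RB1 was not among these 10. In COV362 prexasertib A, the only COV362 library without RB1 counts, 36 of the 6616 had 0 counts.

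**Figure D2:**
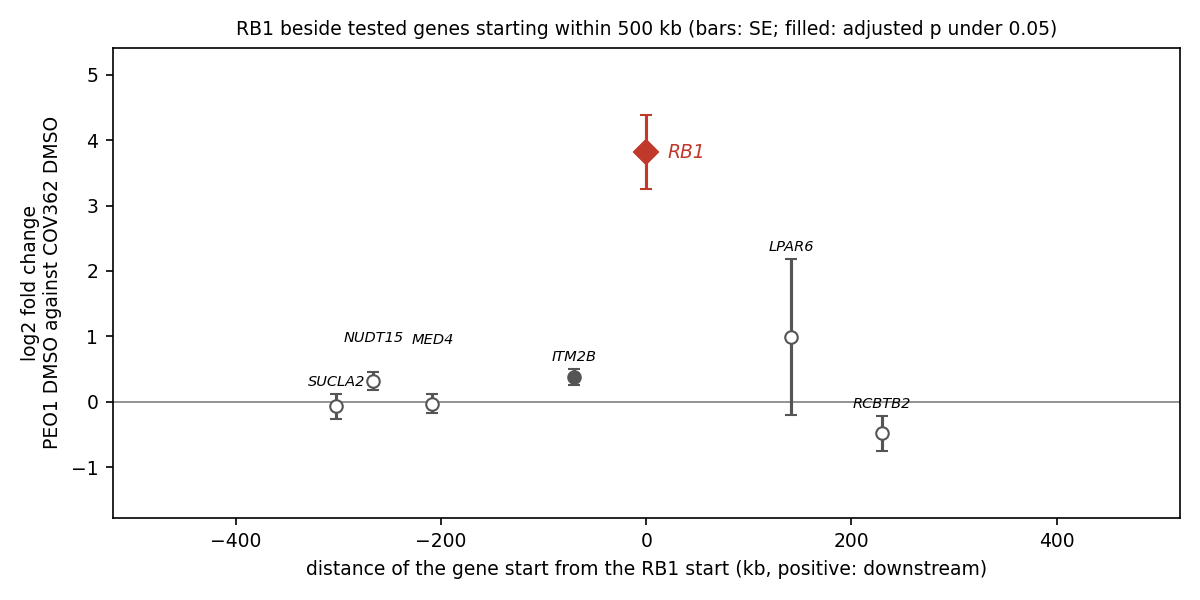
Log2 fold change of PEO1 DMSO against COV362 DMSO (vertical axis, bars SE) for RB1 (red diamond) and the 6 tested genes starting within 500 kb (circles, filled where the adjusted p is under 0.05), by distance of the gene starts in kb. RB1 stands at 3.82 while its 6 neighbours have a median of 0.15.

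RBL1 encodes p107, a pocket protein that pairs mainly with repressive E2F factors, and lies on chromosome 20 (36996351 to 37096000, minus strand, 22 exons). It had 39.6, 51.9 and 43.0 CPM in COV362 DMSO and 35.6, 45.4 and 46.8 CPM in PEO1 DMSO, so the lines overlapped. Per length, the sum of RB1 and RBL1 was 8.15 ± 1.13 CPM per kb in COV362 DMSO and 13.9 ± 2.17 CPM per kb in PEO1 DMSO. RBL1 thus made up nearly all of that sum in COV362. RBL2, the gene of the pocket protein p130 and no member of the set, was at 44.5 ± 19.4 CPM and 73.5 ± 17.5 CPM in the same groups.

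CCND2, a D-type cyclin gene on chromosome 12 (4273736 to 4305356, plus strand, 5 exons), was at 7.74, 7.94 and 7.49 CPM in COV362 DMSO and at 6.47, 7.77 and 7.005 CPM with prexasertib. PEO1 gave 1 count in 3 DMSO libraries and 1 count in 3 prexasertib libraries. The ratio of COV362 to PEO1 was 402 with DMSO, from 324 counts against 1, with a 95% counting interval of 71.6 to 15920. CCND2 shares 126 exon bases with CCND2-AS1 on the other strand, which unstranded reads cannot separate. Of its 7 tested neighbours within 500 kb, 2 were higher in PEO1 (TIGAR at 0.83 and C12orf4 at 0.40 on the log2 scale) and 1 was lower (PARP11 at -1.88), with a median of 0.32. Between the untreated lines 29.1% of all genes were called higher in PEO1 and 28.6% lower.

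CCND3, the D-type cyclin gene on chromosome 6 (41934933 to 42048894, minus strand, 7 exons), was at 111, 77.5 and 98.2 CPM in COV362 DMSO and at 33.0, 24.1 and 27.4 CPM in PEO1 DMSO. PEO1 was lower by a log2 difference of -1.76 ± 0.20 (edgeR quasi-likelihood test, adjusted p = 5.03e-06). CCND1, the D-type cyclin gene on chromosome 11 (69641105 to 69654474, plus strand, 5 exons), was at 1189, 1145 and 1265 CPM in COV362 DMSO and at 798, 710.5 and 783 CPM in PEO1 DMSO. The difference was -0.65 ± 0.11 on the log2 scale (edgeR quasi-likelihood test, adjusted p = 0.000143), and no PEO1 library reached the lowest COV362 library in either gene.

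CCND1 and CCND3 were thus lower in PEO1 by the test and CCND2 by its ratio of counts, and the mean CCND1 share of the family was higher there. Per length, CCND1 made up 89.9 ± 1.42% of the D-type sum in COV362 DMSO and 95.2 ± 0.491% in PEO1 DMSO. CCND3 made up 9.70 ± 1.44% and 4.75 ± 0.493%. The sum itself was 311 ± 17.3 CPM per kb in COV362 DMSO and 187 ± 12.2 CPM per kb in PEO1 DMSO. An exact permutation test of 3 libraries against 3 cannot go below p = 0.1, so shares and sums are given without a test.

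CDK6, one of the kinases that D-type cyclins activate, lies on chromosome 7 (92604921 to 92836627, minus strand, 9 exons). It was at 445, 517 and 433 CPM in COV362 DMSO and at 105, 109 and 99.5 CPM in PEO1 DMSO. PEO1 was 4.46-fold lower (log2 -2.16 ± 0.13, edgeR quasi-likelihood test, adjusted p = 1.03e-08), and every PEO1 library lay below every COV362 library. Of 9 tested neighbours within 500 kb, 5 were lower in PEO1 and 1 was higher, against 28.6% and 29.1% of all genes. LOC101927497, 1 of the 5, starts beside CDK6 on the other strand and shares 81 exon bases with it. It was at 11.8 CPM in COV362 DMSO and 0.496 CPM in PEO1 DMSO.

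CDK4, the other kinase of the pair, lies on chromosome 12 (57747727 to 57752447, minus strand, 8 exons). It was at 713, 418 and 457 CPM in COV362 DMSO and at 386, 333 and 283 CPM in PEO1 DMSO. The log2 difference was -0.66 ± 0.22 (edgeR quasi-likelihood test, adjusted p = 0.0200). COV362 DMSO A stood far above the other COV362 DMSO libraries, and without it the difference was -0.39 with an adjusted p of 0.113 by the same edgeR test. Without PEO1 DMSO C it was -0.56 with an adjusted p of 0.0774 by the same edgeR test. Of the exon bases of CDK4, 517 overlap TSPAN31 on the other strand, so its reads cannot be assigned with certainty. Per length, CDK4 made up 86.4 ± 3.89% of the CDK4 and CDK6 sum in COV362 DMSO and 94.9 ± 0.629% in PEO1 DMSO. These shares rest on the long summed exon length annotated for CDK6, 11762 bases, and without division by length they were 52.5% and 76.0%.

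**Figure D3:**
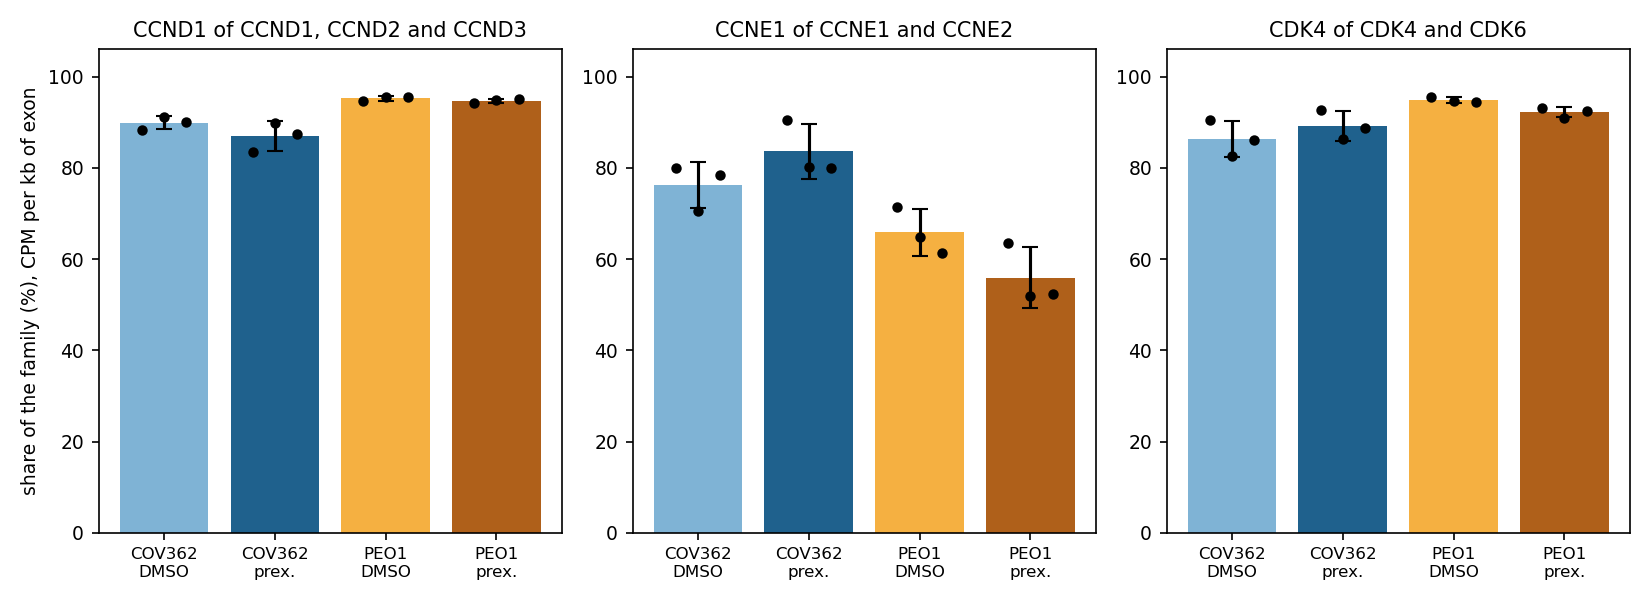
Share of CCND1 among D-type cyclin transcripts, of CCNE1 among E-type and of CDK4 among CDK4 and CDK6 (percent of CPM per kb of exon, bars mean and SD, points the 3 libraries of each group). CCND1 and CDK4 lead their families in every library, and the mean CCNE1 share lies between 55.9% in PEO1 prexasertib and 83.6% in COV362 prexasertib.

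CCNE1, on chromosome 19 (29811994 to 29824308, plus strand, 12 exons), was at 45.7, 33.8 and 39.8 CPM in COV362 DMSO. In PEO1 DMSO it was at 21.7, 20.5 and 20.0 CPM, a log2 difference of -0.94 ± 0.15 (edgeR quasi-likelihood test, adjusted p = 0.000119). No PEO1 library reached a COV362 library. CCNE2, on chromosome 8 (94880225 to 94895254, minus strand, 12 exons), was at 16.1, 19.7 and 15.4 CPM in COV362 DMSO and at 12.1, 15.5 and 17.7 CPM in PEO1 DMSO, and its libraries overlapped. It shares 269 exon bases with INTS8 on the other strand. Per length, CCNE1 made up 76.3 ± 5.003% of the E-type sum in COV362 DMSO and 65.9 ± 5.13% in PEO1 DMSO.

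FBXW7, on chromosome 4 (152321258 to 152535241, minus strand, 16 exons, 127 exon bases shared with DEAR on the other strand), was at 13.2, 15.8 and 13.2 CPM in COV362 DMSO. In PEO1 DMSO it was at 13.8, 15.8 and 13.9 CPM. The receptor for cyclin E thus had overlapping levels in the untreated lines while CCNE1 did not.

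The second comparison asked what prexasertib did to these genes in PEO1. In the fit without a replicate block CCND1 and CCNE1 fell, and the other 8 genes were not called. Over all genes tested 4249 of 14498, or 29.3%, were called in PEO1, 2136 higher (14.7%) and 2113 lower (14.6%). The libraries of 3 members did not overlap between DMSO and drug, CCND1, CCNE1 and CDK6, against 50.1% of all genes tested. Over the 3 letters, CCND1, CCND3, CDK4 and CCNE1 were lower with drug in every letter. CDK6, RB1, RBL1 and FBXW7 were higher in every letter, RBL1 by only 0.02 on the log2 scale in letter C. CCNE2 was mixed, and CCND2 had too few counts to compare. The share of all genes with 1 direction in every letter was not counted, so these directions are description only.

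CCNE1 was at 14.8, 13.7 and 13.9 CPM in PEO1 with prexasertib, against 20.0 to 21.7 CPM with DMSO. All treated libraries lay below all DMSO libraries. The log2 fold change was -0.55 ± 0.15 (edgeR quasi-likelihood test, adjusted p = 0.0152), and the letters gave -0.55, -0.58 and -0.52. CCND1 was at 559, 530 and 571 CPM against 710.5 to 798 CPM, again with no overlap. Its log2 fold change was -0.47 ± 0.11 (edgeR quasi-likelihood test, adjusted p = 0.00549), with -0.51, -0.42 and -0.46 by letter. Both stayed called under all 17 alternative settings, with log2 fold changes of -0.64 to -0.52 for CCNE1 and -0.57 to -0.43 for CCND1.

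CDK6 was at 142, 137 and 119.8 CPM in PEO1 with prexasertib and at 105, 109 and 99.5 CPM with DMSO. The treated libraries lay above the DMSO libraries, by 0.44, 0.34 and 0.27 on the log2 scale in letters A, B and C. The log2 difference of 0.35 ± 0.13 had an adjusted p of 0.0527 in edgeR's quasi-likelihood test. It was called by DESeq2 (adjusted p = 0.0488), which called 34.9% of all genes, and by limma-voom (adjusted p = 0.0479), which called 32% of all genes. With a correction for exon length the value was 0.16, with an adjusted p of 0.416 in the edgeR test. With the letter as a replicate block the adjusted p was 0.000464 in the edgeR test, and with block and length correction 0.0907. The block called 7446 of 14498 genes in PEO1, where the letters were not shown to pair throughout. CDK6 has the longest summed exon length of the set, 11762 bases.

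CCND3 was at 25.1, 21.3 and 22.0 CPM with drug in PEO1 and at 33.0, 24.1 and 27.4 CPM without, and the libraries overlapped (log2 -0.30 ± 0.20, edgeR quasi-likelihood test, adjusted p = 0.271). CDK4 was at 325, 235 and 251 CPM with drug (log2 -0.30 ± 0.22, adjusted p = 0.326 by the same edgeR test). With the replicate block, under the same limit on pairing, the edgeR adjusted p was 0.0155 for CCND3 and 0.00149 for CDK4. CCNE2 was at 11.9, 17.7 and 17.7 CPM with drug, close to its DMSO libraries (0.06 ± 0.25, edgeR adjusted p = 0.883). The CCNE1 share of the E-type sum was 55.9 ± 6.64% with drug, against 65.9 ± 5.13% with DMSO, and the 2 ranges overlapped. The E-type sum was 13.04 ± 0.946 CPM per kb with drug and 16.2 ± 0.574 CPM per kb with DMSO.

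The pocket protein genes and FBXW7 had higher means with drug in PEO1 but were not called in the fit without a block. RBL1 was at 46.2, 62.1 and 47.6 CPM with drug (log2 0.29 ± 0.20, edgeR quasi-likelihood test, adjusted p = 0.296). With the replicate block RBL1 was called (edgeR adjusted p = 0.0298). RB1 gave 0.17 ± 0.46 (edgeR adjusted p = 0.813). FBXW7 was at 15.6, 20.6 and 19.6 CPM, with a log2 difference of 0.36 ± 0.19 (edgeR adjusted p = 0.184), and its lowest treated library was under its highest DMSO library.

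**Figure D4:**
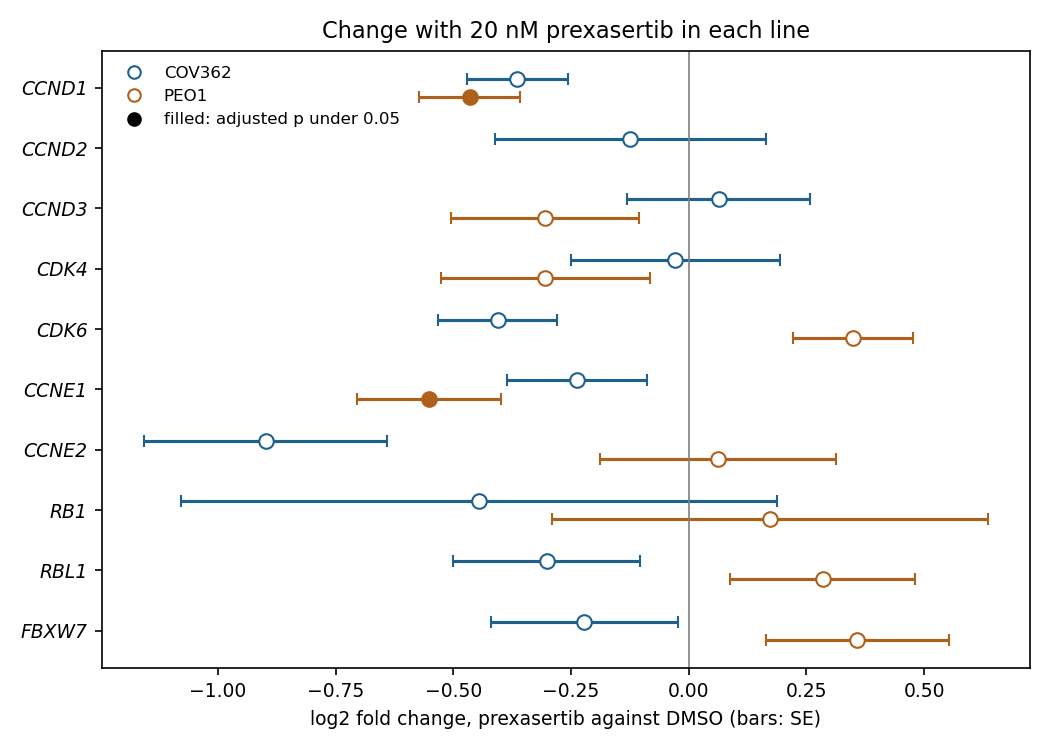
Log2 fold change with 20 nM prexasertib against DMSO (horizontal axis, bars SE) for each gene in COV362 (blue) and PEO1 (orange). CCND2 in PEO1 is left out for lack of counts. Filled circles have an adjusted p under 0.05 in the edgeR fit, which are CCND1 at -0.47 and CCNE1 at -0.55 in PEO1.

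The third comparison was the same drug effect in COV362. None of the 10 genes was called in edgeR's quasi-likelihood test, against 120 of 14498 genes, or 0.828%, 88 higher and 32 lower. Of the 10, DESeq2 called 3 (3.68% of all genes) and limma-voom called 0 (0.904% of all genes). With the letter as a replicate block 3 of the 10 were called, and 1977 of all genes, or 13.6%, 5.74% higher and 7.9% lower. Those 3 genes, CCND1, CDK6 and CCNE2, had treated libraries that did not overlap the DMSO libraries, which was so for 14.5% of all genes tested. Over the letters, CCND3 and CDK4 were mixed and the other genes were lower with drug in every letter. Some of these differences were small, such as -0.02 for FBXW7 and -0.03 for CCND2 in letter B on the log2 scale. The share of all genes with 1 direction in every letter was not counted, so these directions are description only.

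CCND1 was at 895, 944 and 957 CPM with prexasertib in COV362, against 1145 to 1265 CPM with DMSO. The log2 fold change was -0.36 ± 0.11 (edgeR quasi-likelihood test, adjusted p = 0.143). With the letter as a replicate block the adjusted p was 0.000894 in the same edgeR test. CDK6 was at 310.3, 398 and 345 CPM against 433 to 517 CPM, a log2 difference of -0.41 ± 0.13 (edgeR adjusted p = 0.172, with the replicate block 0.000389). With the block and a correction for exon length the CDK6 value was -0.24, with an adjusted p of 0.0263 in the edgeR test.

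CCNE2 was at 5.65, 10.8 and 10.9 CPM with prexasertib in COV362, against 15.4 to 19.7 CPM with DMSO. The letters gave log2 ratios of -1.51, -0.87 and -0.50, and the group difference was -0.90 ± 0.26 (edgeR quasi-likelihood test, adjusted p = 0.134). With the replicate block the adjusted p was 0.000491 in the edgeR test. CCNE1 was at 38.7, 31.4 and 31.0 CPM with drug, and its A library overlapped the DMSO libraries (-0.24 ± 0.15, edgeR adjusted p = 0.567). The CCNE1 share of the E-type sum was 83.6 ± 6.04% with drug and 76.3 ± 5.003% with DMSO. The mean share was thus above its DMSO mean in COV362 and below it in PEO1, a contrast that was not tested.

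The remaining genes of COV362 had differences from -0.45 ± 0.63 (RB1, edgeR adjusted p = 0.851) to 0.06 ± 0.19 (CCND3, edgeR adjusted p = 0.948) on the log2 scale. RBL1 was at 26.5, 44.7 and 37.9 CPM with drug and FBXW7 at 9.83, 15.5 and 10.8 CPM, both overlapping their DMSO libraries. CDK4 was at 668, 424 and 464 CPM and CCND3 at 128, 74.8 and 97.4 CPM, with the A library the highest under either treatment in both genes.

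The lines were then compared in their response, as the PEO1 change minus the COV362 change. In the fit without a replicate block CDK6 was the 1 gene of the set called, with a difference of 0.76 ± 0.18 on the log2 scale (edgeR quasi-likelihood test, adjusted p = 0.0276). Over all genes tested 885 of 14498, or 6.1%, were called. Its letter ratios were -0.52, -0.38 and -0.33 in COV362 and 0.44, 0.34 and 0.27 in PEO1, lower in 3 of 3 letters of one line and higher in 3 of 3 of the other. The call was lost in 11 of 22 alternative settings. With a correction for exon length the difference was 0.41 (edgeR adjusted p = 0.194), without the filter on low counts 0.69 (edgeR adjusted p = 0.0547), and leaving out any of 9 single libraries gave 0.65 to 0.77 with adjusted p-values of 0.0502 to 0.103 in the edgeR test. Those 9 were COV362 DMSO B, COV362 prexasertib A and C, and each of the 6 PEO1 libraries. The letters were not shown to pair throughout either line. With them as a replicate block in both lines, 5 of the set were called, against 33.8% of all genes. CDK6 (edgeR adjusted p = 4.43e-06), CCNE2 (0.00223), RBL1 (0.00373) and FBXW7 (0.0413) were higher and CDK4 was lower (log2 -0.29, edgeR adjusted p = 0.0419).

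CCND1 had a difference between the lines' responses of -0.10 ± 0.15 (edgeR quasi-likelihood test, adjusted p = 0.721), and CCNE1 one of -0.32 ± 0.21 (edgeR adjusted p = 0.378). Both were called in PEO1 and not in COV362, but a difference between the lines was not shown by the test, with or without the block. CCNE2 gave 0.96 ± 0.36 (edgeR adjusted p = 0.120), RBL1 0.59 ± 0.28 (edgeR adjusted p = 0.208) and FBXW7 0.58 ± 0.28 (edgeR adjusted p = 0.211). These 3 genes, like CDK6, had a lower mean with drug in COV362 and a higher mean with drug in PEO1.

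Genes of the inhibitors that act on these kinases differed between the untreated lines in both directions. CDKN2A, which encodes p16 and the p53 regulator ARF, was at 105 ± 37.7 CPM in COV362 DMSO and 120 ± 48.8 CPM with drug, and had 0 counts in all 6 PEO1 libraries. Set against a floor of 3 counts over the 3 PEO1 DMSO libraries, CDKN2A was at least 1664-fold higher in COV362 DMSO. Its neighbour CDKN2B, the gene of p15, was at 3.47 ± 0.591 CPM in COV362 DMSO and likewise had 0 counts in all 6 PEO1 libraries, at least 57.5-fold higher in COV362. COV362 thus had high CDKN2A and low RB1, and PEO1 the reverse. CDKN1C, the gene of p57, was at 2.88 CPM in COV362 DMSO and 0.207 CPM in PEO1 DMSO. CDKN2A, CDKN2B and CDKN1C passed the filter only through COV362 and are not counted. Of the other 4 inhibitor genes 2 were higher (CDKN1B and CDKN2D) and 1 was lower (CDKN2C) in PEO1 DMSO by the edgeR test, against 57.7% of all genes called. CDKN1B was at 42.8 CPM in COV362 DMSO and 106 CPM in PEO1 DMSO, and CDKN2D at 5.56 and 14.0 CPM. CDKN2C, the gene of the INK4 protein p18, was at 39.1 ± 6.90 CPM in COV362 DMSO and 8.45 ± 1.47 CPM in PEO1 DMSO (log2 -2.21 ± 0.19, edgeR adjusted p = 3.24e-07).

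With drug, 1 of the 7 inhibitor genes rose in COV362, where 0.607% of all genes rose. In PEO1 2 of the 5 with counts there rose, where 14.7% of all genes rose, and 0 fell in either line. With the replicate block 3 were called higher (CDKN1A, CDKN2B and CDKN2D) and 1 lower (CDKN1B) in COV362. The block called 5.74% of all genes higher there and 7.9% lower. CDKN1A, which encodes p21, rose in COV362 from 6.76 ± 1.89 to 20.1 ± 1.62 CPM (log2 1.55 ± 0.23, edgeR quasi-likelihood test, adjusted p = 0.00559). In PEO1 it rose from 6.74 ± 1.30 to 52.6 ± 11.5 CPM (log2 2.96 ± 0.23, edgeR adjusted p = 2.53e-06), and the difference between the responses was 1.41 ± 0.31 (edgeR adjusted p = 0.0213). CDKN2D, the gene of the INK4 protein p19, rose in PEO1 from 14.0 ± 1.98 to 35.7 ± 5.05 CPM (1.35 ± 0.28, edgeR adjusted p = 0.00314).

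Of 22 replication and S-phase genes known as E2F targets, 0 were called in COV362 (median log2 -0.17) and in PEO1 10 fell and 2 rose (median -0.42), against a median over all genes of -0.01 and 0.01. Over all genes 14.6% fell and 14.7% rose in PEO1. The 22 were chosen with earlier results of these data known, so their counts and medians are description only. With the replicate block 5 were called lower in COV362 (among them CCNA2, MCM10 and RRM2) and 0 higher, against 7.9% and 5.74% of all genes. Among the 10 in PEO1 were CCNA2, CDC45, CDT1, MCM3, MCM5, MCM6 and TK1. MCM5, a subunit of the replicative helicase, fell from 91.8 ± 9.89 to 48.6 ± 4.74 CPM (-0.92 ± 0.14, edgeR adjusted p = 0.000465). TK1, thymidine kinase, fell from 490.0 ± 55.4 to 269.6 ± 29.0 CPM (-0.86 ± 0.21, edgeR adjusted p = 0.00725). The 2 that rose were CDC25A, a phosphatase that activates CDK2, and RRM2, a ribonucleotide reductase subunit.

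Of 16 genes of E2F and DP factors, other pocket partners and the MuvB core, 0 were called in COV362. E2F8 had 0 counts in both COV362 groups and could not be called there, with or without the block. In PEO1 4 rose (E2F6, E2F7, LIN52 and LIN54) and 2 fell (E2F1 and TFDP1). In PEO1 the 6 of 16 are near the 29.3% of all genes called. Against 13.6% of all genes, the block called 5 lower in COV362 (E2F2, LIN9, RBBP4, RBL2 and TFDP1) and 1 higher (LIN37). E2F7, a repressive E2F, rose from 25.7 ± 5.61 to 52.8 ± 8.61 CPM (1.04 ± 0.21, edgeR adjusted p = 0.00221). LIN54, the DNA-binding subunit of MuvB, rose by 0.84 ± 0.26 on the log2 scale (edgeR adjusted p = 0.0251). Among 7 kinase partners and subunits of the CDK-activating kinase, CDK7 and CCNH rose and CCNA2 fell in PEO1 (29.3% of all genes called). In COV362 0 were called, or with the block CDC37 and CDK7 higher and CCNA2 lower (13.6% of all genes called). CDK7, the catalytic subunit of the activating kinase, rose from 52.5 ± 4.43 to 80.5 ± 1.36 CPM (0.62 ± 0.12, edgeR adjusted p = 0.00166). CCNA2, the gene of cyclin A2, fell from 110.6 ± 11.9 to 67.9 ± 9.05 CPM (-0.70 ± 0.14, edgeR adjusted p = 0.00271).

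Of 12 genes of cyclin turnover, 0 were called in COV362 and in PEO1 2 rose (CUL3 and SKP1) and 3 fell (CUL1, FZR1 and SKP2), a share near the 29.3% of all genes called. With the block, FBXO31 was called higher and GSK3B and SKP2 lower in COV362, where 13.6% of all genes were called. SKP2, the receptor that directs the inhibitor p27 to destruction, fell from 83.4 ± 4.29 to 44.3 ± 0.295 CPM (-0.91 ± 0.12, edgeR adjusted p = 0.000141). FZR1, an activator of the anaphase-promoting complex, fell by 0.83 ± 0.24 on the log2 scale (edgeR adjusted p = 0.0171). Of 7 genes whose proteins are other known substrates of FBXW7, 0 were called in COV362 and in PEO1 4 rose (JUN, KLF5, MCL1 and MED13) and 0 fell. The median log2 change of the 7 in PEO1 was 0.91, against 0.01 over all genes, of which 14.7% rose. The other 3 had log2 changes of -0.55 (SREBF1), -0.35 (NOTCH1) and -0.11 (AURKA) and were not called. The 7 were chosen with earlier results of these data known, so their counts and median are description only. With the block, JUN was called higher and KLF5 lower in COV362, where 13.6% of all genes were called. JUN, an AP-1 transcription factor gene, rose from 58.1 ± 9.15 to 135 ± 30.9 CPM (1.22 ± 0.21, edgeR adjusted p = 0.00076). MED13, a Mediator subunit gene, rose from 91.9 ± 16.1 to 214 ± 51.6 CPM (1.22 ± 0.30, edgeR adjusted p = 0.00847). These transcript levels say nothing of protein turnover, which was not measured.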

How the data were processed

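Per the labels' protocols, RNeasy columns were used for RNA and the TruSeq RNA Library Prep Kit v2 for the 12 libraries. STAR, Subread, featureCounts 1.4.6 and build hg38 are named in the submitters' processing notes, without roles. The authors deposited whole-number read counts without normalization, and the table's own gene spans and exon lengths are used. The kit keeps no strand, so counts shared by overlapping genes are uncertain. From the counts, TMM-scaled CPM and CPM per kb of exon were computed. One edgeR 4.0.16 quasi-likelihood fit (R 4.3.3) of the 4 groups, which left 8 residual degrees of freedom, gave all 4 comparisons, after filterByExpr (minimum count 10, minimum total 15) left 14498 genes. Adjusted p-values are Benjamini-Hochberg over those genes, with calls under 0.05, and SEs are from that fit. The fit was tested on simulated data. Alternatives were DESeq2 1.42.0 (test and size factors), limma-voom (limma 3.58.1), other filters, an exon length correction, a replicate block, library totals alone (chosen after seeing the data) and left-out libraries. Deviations of same-letter libraries had r = 0.41, 0.42 and 0.13 within COV362 and 0.30, 0.17 and 0.08 within PEO1 for A, B and C. In COV362 a different-letter pair, DMSO B with prexasertib C, was at 0.138 against 0.133 for the C pair. In PEO1 DMSO C with prexasertib B was at 0.22, above the B and C pairs. The letters were thus not shown to pair throughout either line, and block values stand beside the others under that limit. The members and gene lists were chosen with earlier results of these data known. By rule the text names all members, the 2 largest called changes of each list with a mean of at least 1 CPM, and the neighbours within 500 kb of the members that differed most between untreated lines. Other list members are named as examples of those called, chosen after their values were seen, and some genes are not reported here. CDKN2A and CDKN2B were singled out after their values were seen.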

Additional observations from a re-analysis of the deposited data

Results flagged for a closer look

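Without a replicate block, CDK6 was the 1 gene of the set called in the test of the difference between the lines' responses to prexasertib. With the block 5 of the set were called, CDK6 among them. Over all genes 6.1% were called without the block and 33.8% with it. For CDK6 the PEO1 change minus the COV362 change was 0.76 on the log2 scale (edgeR quasi-likelihood test, adjusted p = 0.0276). CDK6 was higher with drug in 3 of 3 letters of PEO1 and lower in 3 of 3 letters of COV362. Over 22 alternative settings the difference stayed positive, from 0.39 to 0.85, with the adjusted p between 4.43e-06 and 0.194. The call was lost in 11 of these 22 settings.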

How the results depend on the processing

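Over the settings tried, 630 single-gene values kept their direction and side of the threshold, 27 gained a call, 13 lost one and 21 changed sign, none of the last in a called value. In COV362 the set's count of called genes rose from 0 to 3 with the replicate block, with block and length correction, and with DESeq2. All genes called there numbered 1977 with the block, 1859 with block and length correction, 221 with length correction, 533 with DESeq2, 10 from the compared groups alone, 330 without the A libraries and 27 to 128 with 1 library left out. The letters were not shown to pair throughout either line. In PEO1 the block gave 6 of the set and 7446 genes, and with length correction 4 and 7618. For the difference of responses the block gave 5 and 4906, with length correction 4 and 4825. There length correction alone gave 0 and 1532, no filter 0 of the set, DESeq2 1966 genes, and left-out libraries 0 to 1 of the set and 328 to 1756 genes. Between untreated lines the set had 7 calls without and 7 with the replicate block, against 8361 and 10241 of all 14498 genes. These include CCND2, which passed the filter only through COV362, so its call is no support. Without COV362 DMSO A, or without PEO1 DMSO C, the set had 6, as CDK4 was lost. Sign changes in values without a call were as follows. In COV362 without the A libraries CCND3 was -0.0224 and CDK4 0.0277, and by library totals CDK4 was 0.0054. With 1 library left out, CCND3 ran from -0.15 to 0.23, CDK4 from -0.25 to 0.24 and RB1 from -1.44 to 0.11 in COV362, and CCNE2 from -0.13 to 0.18 and RB1 from -0.0118 to 0.27 in PEO1. Between untreated lines RBL1 ran from -0.16 to 0.0455 (0.0096 by library totals) and FBXW7 from -0.0291 to 0.14 (-0.0334 with length correction and -0.0283 with the block added). The cause was not tested. Low counts limit RB1 in COV362 and CCND2 in PEO1.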

Other observations

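By rule, the genes whose log2 CPM followed a member most closely over the 12 libraries were found by Pearson r, as a description in which the lines and the depth are shared. CCND2 was followed by FLI1 (r = 0.999) and MTAP (r = 0.998). MTAP, which encodes an enzyme of methionine salvage, was at 51.3 CPM in COV362 DMSO and had 0 CPM in every PEO1 library, as CDKN2A and CDKN2B did. RB1 was followed by POP1 (r = 0.984) and GPR160 (r = 0.983), CCND1 by CERK (0.993) and SH3BP4 (0.979), and CCNE1 by SEPHS1 (0.996) and LHX1 (0.994). CDK6 was followed by TAF9B and GAB2 (both 0.993), CDK4 by MRPL24 (0.994) and ERP29 (0.993), and CCND3 by URM1 and UROD (both 0.996). The nearest patterns were less close for CCNE2 (DCAF16, 0.944), RBL1 (SEMA3C, 0.956) and FBXW7 (XPO4, 0.949).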
